A study of Drosophila melanogaster with 2 samples.

Results

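The peaks described here are those that Abd-B-GFP ChIP-seq placed at genes for noncoding RNA in Drosophila melanogaster embryos. A peak was included when its summit lay inside a gene that the annotation calls ncRNA, or within 1000 bp of that gene's transcription start site (TSS), provided that the summit was outside every protein-coding gene and more than 500 bp from every protein-coding TSS. This rule took 187 of the 5033 peaks (3.72%) that met the authors' threshold on the irreproducible discovery rate (IDR) on the 6 main chromosome arms. Of the 187, 184 lay at a gene for a long noncoding RNA (lncRNA) or an antisense RNA (asRNA), 2 at microRNA entries only and 1 at a host gene for small nucleolar RNAs. The label long noncoding RNA therefore holds for all but 3 of them.

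The study has 1 group of 2 biological replicates: whole embryos aged 4 to 20 h from a line that stably expresses Abd-B with GFP fused to its C-terminus, precipitated with an antibody against GFP. The labels do not name the promoter that drives the fusion, and values from an untagged line were not used here. With no second group there is nothing to test between conditions, so the peaks are described by counts, shares and medians beside all 5033 peaks and beside 3 other position classes. Whole embryos mix many cell types, so binding in few cells and weaker binding in many cannot be told apart, and the lists hold no expression values with which the tissue could be checked. A rank of 1 is the peak with the highest value of the signal that the authors deposited, whose scale is not given.

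Abd-B is the most posterior Hox protein of the fly, a homeodomain transcription factor that sets the identity of the posterior abdomen. The fly genome holds many lncRNA genes, most of them known only by a CR number. A few are well studied: bxd and iab8 are transcribed through the regulatory DNA of the bithorax complex, which holds the Hox genes Ubx, abd-A and Abd-B, and other noncoding transcripts are the precursors of microRNAs or small nucleolar RNAs.

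The sequences at 8 summits are printed here because they show 5 of the 7 strongest of these peaks, the best peak in each bithorax complex lncRNA, and the strongest peak with each motif found among them. Each is 201 bases around the summit, taken from RefSeq on dm6 coordinates, plus strand, 5′ to 3′. Capitals mark TTTATGG or TTTATTG (the Abd-B motif), TAATTA (the Hox core) and TATCGATA (the motif bound by DREF, a factor of proliferation genes) on either strand.
Vinr and CR44619, rank 9, chrX:12751274-12751474: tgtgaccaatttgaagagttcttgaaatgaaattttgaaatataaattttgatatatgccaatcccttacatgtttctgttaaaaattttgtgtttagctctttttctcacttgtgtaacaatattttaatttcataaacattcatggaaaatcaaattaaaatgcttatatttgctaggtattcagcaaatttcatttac
CR44619, rank 50, chrX:12752252-12752452: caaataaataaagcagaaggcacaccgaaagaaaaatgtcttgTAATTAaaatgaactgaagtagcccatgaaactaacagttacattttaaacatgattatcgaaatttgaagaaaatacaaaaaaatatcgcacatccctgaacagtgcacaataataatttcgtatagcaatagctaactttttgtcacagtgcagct
CR45643, rank 77, chr3R:16222376-16222576: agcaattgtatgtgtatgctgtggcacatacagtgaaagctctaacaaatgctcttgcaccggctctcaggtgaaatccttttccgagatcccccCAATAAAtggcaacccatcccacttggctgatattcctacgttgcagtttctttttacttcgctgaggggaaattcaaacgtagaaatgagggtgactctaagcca
CR31044, rank 109, chr3R:29214356-29214556: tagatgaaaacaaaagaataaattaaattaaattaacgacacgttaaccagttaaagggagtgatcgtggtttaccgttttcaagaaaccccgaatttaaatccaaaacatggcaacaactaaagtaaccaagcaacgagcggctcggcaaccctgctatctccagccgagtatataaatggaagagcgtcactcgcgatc
CR45643, rank 165, chr3R:16224414-16224614: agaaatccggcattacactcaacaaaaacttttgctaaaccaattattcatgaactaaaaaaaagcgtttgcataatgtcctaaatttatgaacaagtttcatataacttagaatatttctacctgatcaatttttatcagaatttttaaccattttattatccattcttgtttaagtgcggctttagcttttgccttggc
bxd, rank 414, chr3R:16764129-16764329: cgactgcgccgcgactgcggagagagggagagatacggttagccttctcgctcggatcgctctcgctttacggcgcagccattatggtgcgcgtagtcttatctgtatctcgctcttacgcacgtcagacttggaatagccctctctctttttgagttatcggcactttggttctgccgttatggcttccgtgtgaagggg
iab8, rank 1403, chr3R:16915699-16915899: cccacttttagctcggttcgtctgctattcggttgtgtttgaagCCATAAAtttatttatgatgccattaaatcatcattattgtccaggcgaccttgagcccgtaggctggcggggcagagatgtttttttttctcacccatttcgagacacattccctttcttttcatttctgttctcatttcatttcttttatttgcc
CR44357, rank 1973, chrX:7277142-7277342: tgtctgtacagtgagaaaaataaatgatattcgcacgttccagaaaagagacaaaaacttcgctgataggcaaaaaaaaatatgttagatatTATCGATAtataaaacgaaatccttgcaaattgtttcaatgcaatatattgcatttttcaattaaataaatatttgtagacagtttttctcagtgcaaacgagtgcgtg
The strongest of these summits, at Vinr, had none of the capitalised motifs and a GC content of 24.9%. At CR45643 the Abd-B motif, read on the minus strand, ran from 5 bases before the summit to 1 base after it. In iab8 it ran from 56 to 50 bases before the summit. The summit in bxd stood apart by its GC content of 55.2%, and it held GAGAG, the site of the GAGA factor, but no motif in capitals.

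The highest signal was found at a pair of overlapping lncRNA genes on the X chromosome. The peak at rank 9, with a signal of 2969 on the authors' scale, lay in an exon of Vinr, an RNA known to be induced by virus infection, and 493 bp upstream of a TSS of CR44619. It ranked 9 in replicate 1 and 8 in replicate 2. A second summit 485 bp inside CR44619 was at rank 50 (58 and 53 in replicates 1 and 2). Further peaks of CR44619 were at rank 1861 (2227 and 1621) and rank 3620 (1701 and 4982). The upper pair was thus placed alike in both replicates, whereas the weakest of the 4 was far apart in them. The closest coding TSS to the first summit was that of CG4004, 5057 bp away.

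In the bithorax complex, the bxd gene (chromosome 3R, bases 16742125 to 16773189, minus strand) held 7 of the peaks, more than any other noncoding RNA gene. Counted over all IDR summits inside a gene, some held more: 21 in CR44357 and 13 each in iab8 and CR44999, beside 7 in bxd. The density of bxd was not the highest, at 23.4 summits per 100 kb of its bases that satisfy the rule. Shorter genes such as CR43334 (25.9) and CR44619 (111) had more, and the longer iab8 had less (7.56). All 7 peaks of bxd lay in its introns. The strongest, whose nearest coding gene was CG31275, was at rank 414 (340 in replicate 1 and 458 in replicate 2) and the next at rank 992 (625 and 1427). Next in strength were ranks 2163 (1328 and 2519), 2208 (2298 and 2163) and 2457 (1479 and 3170). The last were at rank 3135 (2728 and 3518) and rank 4559 (7637 and 5367). Every one of the 7 had a partner within 100 bp in both replicates, and 5 of the 7 ranked higher in replicate 1, against 34.7% of the noncoding RNA peaks with a partner in both. The summits at ranks 992 and 4559 are close neighbours, at bases 16770986 and 16771189, and those at ranks 2163 and 2457 likewise, at 16743698 and 16743300. Whether such neighbours are separate sites was not tested.

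The iab8 gene (3R, 16831116 to 16923231, minus strand) gives rise to an RNA known to repress abd-A in the posterior nervous system and hosts mir-iab-8. Its span held 13 summits of the IDR list, but most lie inside protein-coding genes annotated within it, and 3 peaks satisfied the rule. One was intronic at rank 1403 (1153 in replicate 1 and 1736 in replicate 2). A second lay 429 bp upstream of its TSS at rank 2826 (1393 and 4554), and the third was intronic at rank 3973 (5490 and 3650). Abd-B itself was the nearest coding gene to all 3, at 10582 to 18443 bp. The strongest summit at iab8 that the rule left out was at rank 301.

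MicroRNA host genes formed a further set, chosen after the values were seen. Of 37 lncRNA or asRNA genes that contain a microRNA hairpin on their own strand, 11 (29.7%; 95% Wilson interval 17.5 to 45.8%) had at least 1 peak, against 6.29% of all 2447 lncRNA and asRNA genes. Host genes are long, with a median of 6436 bp against 720 bp for all, and the part of length in the difference was not tested. Host genes longer than 5000 bp had a peak in 8 of 22 cases, beside 31 of all 114 lncRNA and asRNA genes of that length (27.2%).

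CR43334, the primary transcript of bantam, a microRNA that promotes growth and blocks apoptosis, held 5 peaks on chromosome 3L. They were at rank 595 (853 in replicate 1 and 532 in replicate 2), 718 (1197 and 600) and 1753 (2269 and 1731), and at ranks 4276 and 4312, which had partners in replicate 2 alone (3192 and 4633). All 3 with a partner in both replicates ranked higher in replicate 2. The summit closest to the bantam hairpin, at rank 1753, was 1456 bp from it.

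The peaks of the other hosts differed in number and strength. CR31044, which hosts mir-279 and mir-996, known for their part in olfactory neuron identity, had a peak 106 bp upstream of its TSS at rank 109 (77 in replicate 1 and 161 in replicate 2), nearest to eEF1gamma, a translation factor gene. CR43626, the host of mir-282, had a peak at rank 257 (354 and 248), 768 bp from the hairpin and nearest to CG43389. CR46006, the host of mir-276a, held 4 peaks in its introns at ranks 1695, 2120, 2632 and 3727, the third without a partner in replicate 1. CR43650, the host of mir-8, a regulator of growth, had 3 weak peaks at ranks 3306 (3113 and 3823), 3616 (8396 and 2860) and 3909 (2458 and 4904). Single peaks lay at the hosts of mir-375 (rank 1639), mir-184 (2339), mir-275 (3194), and mir-13a, mir-13b-1 and mir-2c (4093). The last of these had no partner in either replicate list. The 2 peaks at microRNA entries with no lncRNA gene were at mir-4981, near CG14762 (rank 411; 364 and 437 in replicates 1 and 2) and mir-92b (rank 1989).

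**Figure D1:**
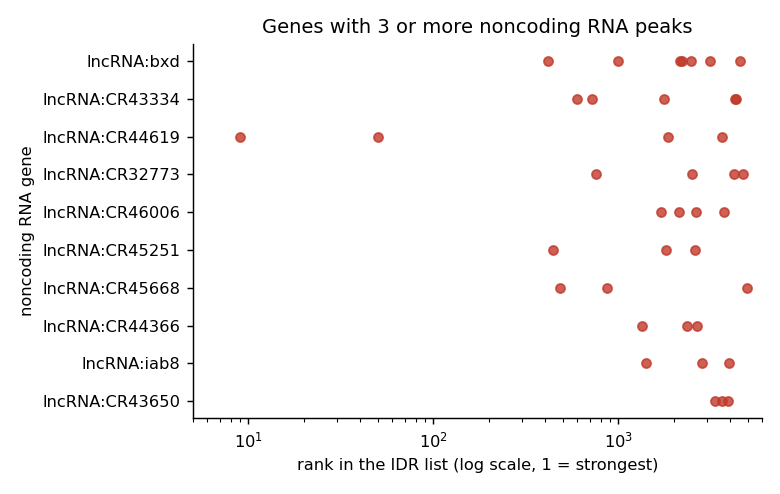
Ranks in the IDR list (log scale, 1 is the strongest) of the peaks at the 10 noncoding RNA genes with 3 or more of them; each point is 1 peak. CR44619 reached ranks 9 and 50, bxd has 7 points from 414 to 4559, and the 3 points of CR43650 run from 3306 to 3909.

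Several other lncRNAs with a described role had peaks, mostly of middling strength. Hsromega, a heat-shock-inducible nuclear RNA, had summits 36 and 236 bp downstream of its TSS at ranks 870 (698 in replicate 1 and 1094 in replicate 2) and 1897 (3152 and 1735). These 2 peaks overlap, and whether they are separate sites was not tested. Uhg4, a host of small nucleolar RNAs, had a peak 83 bp upstream of its TSS at rank 1584 (943 and 2216). flam, the piRNA locus that silences gypsy-type transposons in the ovary, had a peak 130 bp upstream of its TSS, shared with CR44712, at rank 2251 (1963 and 2406). acal, which acts in JNK signalling during dorsal closure, had an exonic peak at rank 3187 that was missing in replicate 1. roX1, an RNA of the dosage compensation complex of males, had an exonic peak at rank 4031 (4245 and 4291), with a GC content of 58.2%.

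Of a list of 29 noncoding RNAs with a described role, 23 were found by name in the annotation and 8 had a peak: Vinr, bxd, Hsromega, iab8, Uhg4, flam, acal and roX1. Uhg8 had an IDR summit at rank 457 that was classed with a protein-coding promoter. The 14 without any IDR summit were roX2, the partner of roX1 in dosage compensation, let7C, the host of let-7, and yar, CRG, sphinx, cherub, noe, dntRL, hpRNA:CR18854, Uhg1, Uhg2, Uhg3, Uhg5 and Uhg7. Not matched by name were IBIN, pgc, bft, MRE16, rncs-1 and Hph. The list was drawn up with results of these data known, so its share says nothing about lncRNAs with a role as a class.

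Most of the strongest peaks lay at lncRNA genes with no described role, some of them beside genes of known function. CR45643, near tara, a trithorax group gene, had peaks at ranks 77 (61 in replicate 1 and 95 in replicate 2) and 165 (128 and 206), 3175 and 1137 bp from the tara TSS. CR44339 had a peak 155 bp upstream of its TSS at rank 67 (46 and 88), and its nearest coding gene was the Polycomb group gene Psc at 4218 bp. CR44810, near slbo, the fly C/EBP, had peaks at ranks 121 (172 and 102) and 313 (426 and 269). CR45668 had a peak 236 bp upstream of its TSS at rank 483 (601 and 450), 636 bp from the TSS of the actin gene Act5C, and others at 869 (1257 and 821) and 4946 (5673 and 5087). CR42657 had a peak at rank 510 (502 and 530), 684 bp from the TSS of nej, the fly CBP acetyltransferase. At CR45668 and CR42657 the coding TSS is close to the 500 bp limit of the rule.

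The remaining peaks among the 20 strongest were at CR45595 near l(3)neo38 (rank 226; 416 in replicate 1 and 188 in replicate 2), CR44676 near CG9300 (266; 317 and 265), CR45737 near Ids (416; 659 and 321), CR45251 near CG6163 (443; 541 and 393), CR42794 near CG3149 (476; 444 and 497), and CR44917 with CR44919 near CG11629 (521; 741 and 462). All 20 had partners in both replicates, with 853 as the weakest rank in replicate 1 and 532 in replicate 2, and 12 lay within 500 bp of a noncoding TSS. Of the genes with 3 or more peaks not yet described, CR45251 had its other summits at ranks 1801 and 2605. Its peak at rank 2605 overlaps the one at rank 443, and whether they are separate sites was not tested. CR44366 had 3 summits at ranks 1334, 2349 and 2658. CR32773, which is 223710 bp long, had 4 in its introns at ranks 752, 2493, 4199 and 4692, the last without a partner in replicate 2.

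In strength the noncoding RNA peaks resembled the IDR list as a whole more than they did coding promoters. Their ranks ran from 9 to 5022 with a median of 2576 (quartiles 1528.5 and 3797), beside 2517 for all peaks, 2093.5 for protein-coding promoters, 2836 inside protein-coding genes and 3031.5 outside all genes. Their signal ran from 152.9 to 2969 with a median of 253.9, and the median of all peaks was 258.3. Among the 1000 strongest peaks were 31 of the 187 (16.6%; 95% Wilson interval 11.9 to 22.6%), close to the 19.9% of all IDR peaks, with 26.2% of promoter peaks, 15.1% of those inside coding genes and 12.3% of those outside genes. Cut into 4 equal stretches from the strongest to the weakest, the list held 36, 55, 49 and 47 of them.

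**Figure D2:**
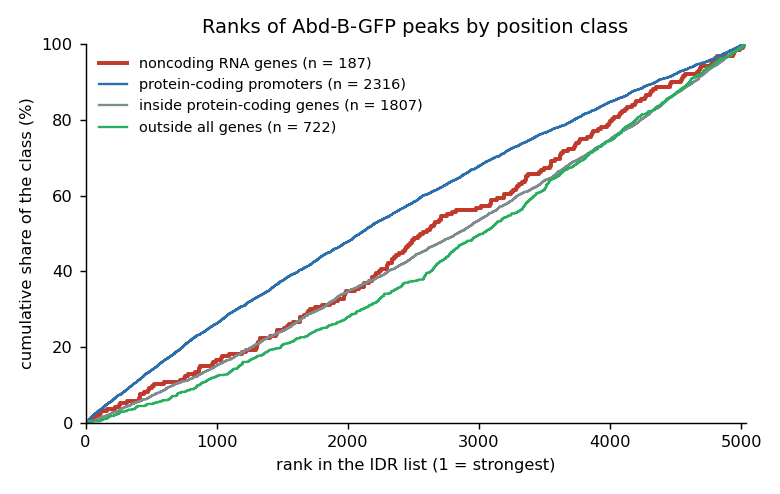
Cumulative share (%) of each position class against the rank in the IDR list (1 is the strongest), 1 line per class. The line of the 187 noncoding RNA peaks (median rank 2576) runs below that of the 2316 promoter peaks (2093.5) and, over most ranks, above that of the 722 peaks outside all genes (3031.5).

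Per base, noncoding RNA genes held peaks at a density between promoters and gene bodies. The bases where a summit would satisfy the rule come to 4030508 (3.01% of the arms), which gives 4.64 peaks per 100 kb, beside 3.76 over all arms, 15.1 at coding promoters, 2.30 inside coding genes and 2.01 outside genes. By arm there were 49 on 2L, 33 on 2R, 34 on 3L, 35 on 3R, 36 on X and 0 on 4, or 3.61 per 100 kb of such bases on X and 6.81 on 2R as the lowest and highest of the 5 large arms. Of the 187, 119 (63.6%) lay within 5000 bp of another IDR summit, compared with 54.1% of all IDR peaks. The share was 59.2% inside coding genes, 51.5% at coding promoters and 47.0% outside genes. Summits of overlapping peaks count towards all of these shares.

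Both replicates held nearly all of these peaks. A partner summit within 100 bp was found in both replicate lists for 170 of 187 (90.9%; 85.9 to 94.2%), beside 92.1% of all IDR peaks. The replicates entered the making of the IDR list, so this share is a description. A partner was missing in replicate 1 for 14 peaks and in replicate 2 for 4, and both counts include CR45911 at rank 4093, which had none in either. Their median rank was 2740 in replicate 1 and 2497 in replicate 2, and 111 of 170 (65.3%) ranked better in replicate 2, as did 56.0% of all IDR peaks with both partners. The authors' q-value was 0.05 or less for 121 (64.7%) in replicate 1 and 183 (97.9%) in replicate 2, beside 72.9% and 96.2% of all IDR peaks. Spearman's rho between the 2 replicate ranks was 0.64 over the 170 peaks, which share the libraries, and 0.75 over all IDR peaks with both partners.

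**Figure D3:**
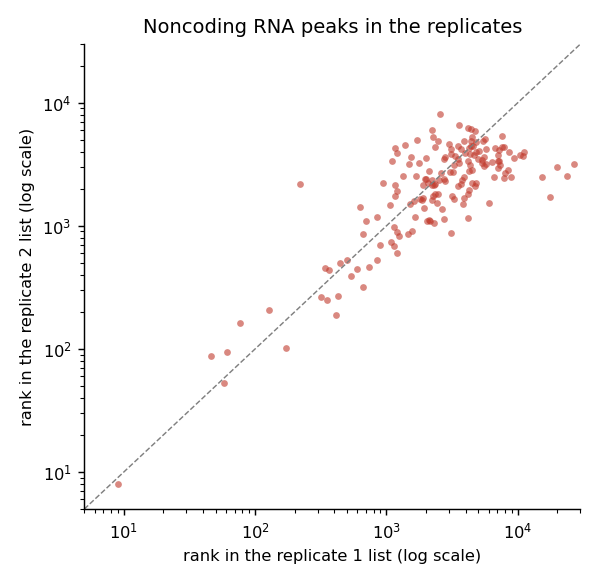
Rank of each noncoding RNA peak in the replicate 1 list (x axis) against the replicate 2 list (y axis), both on log scales, for the 170 peaks with a partner within 100 bp in both; the dashed line marks equal ranks. Points near the strong end lie close to the line, from ranks 9 and 8, while the spread widens beyond rank 1000 and 111 points lie below the line.

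Relative to the noncoding genes, 51 summits (27.3%) lay in exons, 43 (23.0%) in introns and 93 (49.7%) outside the gene within 1000 bp of its TSS. Median ranks of 2713, 2667 and 2535 in these places were close to each other. Summits within 500 bp of a noncoding TSS numbered 83 (44.4%; 37.4 to 51.5%), with a median rank of 2473, and the other 104 had a median of 2890.5. The rule takes summits within 1000 bp of a noncoding TSS, so the shares by place and distance are set by it in part. The same shares of the bases that satisfy the rule were not measured. Of the 83, 56 (67.5%; 56.8 to 76.6%) lay upstream of the TSS, while 2016 of the 2316 protein-coding promoter peaks (87.0%; 85.6 to 88.4%) lay upstream of theirs. The median position relative to the TSS was −140 bp for noncoding and −118 bp for coding genes. How exactly the annotation places noncoding TSSs was not measured here.

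**Figure D4:**
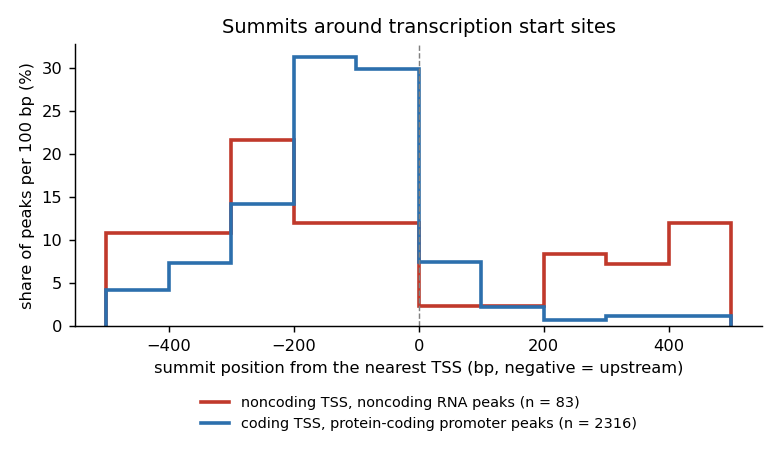
Position of summits from the nearest TSS in bp (negative is upstream), as the share of peaks (%) in 100 bp bins, for the 83 noncoding RNA peaks within 500 bp of a noncoding TSS and the 2316 protein-coding promoter peaks. Coding promoter summits gather in the 200 bp before the TSS (median −118 bp), whereas noncoding ones spread over the window, with 67.5% upstream.

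Protein-coding TSSs were 4248 bp away at the median (quartiles 1815.5 and 9880). Within 1000 bp of one were 15 peaks, within 5000 bp 101, and beyond 10000 bp 47. The farthest was the CR46006 peak at rank 2632, 68636 bp from CG12362. In all 140 coding genes were the nearest to some peak, and 124 of the 187 summits (66.3%) lay upstream of that gene's TSS. The rule removes summits inside coding genes, and with them positions downstream of a coding TSS, so this share is set by it in part. At the edge of the rule, the peak of Uhg4 at rank 1584 lay 532 bp from the TSS of Boot, and the nearest peak left out, at rank 3899, lay 484 bp from a coding TSS. In all 130 peaks at noncoding RNA genes were left out for a coding TSS within 500 bp. On the noncoding side, the last peak taken lay 953 bp from its TSS (rank 416) and the next one outside 1040 bp away (rank 3350).

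AT-rich sequence was found at the summits, as in the rest of the list. GC content in 201 bp was 36.2% ± 8.43 (SD, n = 187 peaks), compared with 42.6% ± 7.44 in flanks 400 to 500 bp away, and 34.9% ± 7.25 and 43.7% ± 7.56 for all IDR peaks. It was below the flank at 131 of 187 peaks (70.1%), compared with 79.6% of all and 84.9% at promoters. Values ran from 21.4 to 58.7%.

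Motifs of homeodomain proteins were found at a share of these summits close to the rest of the list. The Abd-B motif TTTATGG or TTTATTG, searched on both strands in 201 bp, was present at 43 of 187 (23.0%; 17.5 to 29.5%) and in the flanks of 26 (13.9%). It was at 19.2% of all IDR summits, and in 13.0% of genome tiles of the same length. The Hox core TAATTA was at 34 (18.2%; 13.3 to 24.3%) and in the flanks of 27 (14.4%), beside 19.5% of all IDR summits and 12.5% of tiles. Tiles centred on bases that satisfy the rule held TTTATGG or TTTATTG at 15.2% and TAATTA at 13.6%. In all 69 of the summits held at least 1 of these motifs and 8 held both. The Caudal motif TTTATG, which overlaps the first form of the Abd-B motif, was at 55 (29.4%) and in the flanks of 44 (23.5%). It was at 28.4% of all IDR summits, in 20.2% of genome tiles and in 23.9% of tiles centred on bases that satisfy the rule. TGATTTAT, the motif of Hox with its cofactor Exd, was at 3 (1.60%), beside 2.74% of all and 6 (3.21%) in the flanks. GC content was lower at the summits (36.2%) than in the flanks (42.6%) and in tiles centred on bases that satisfy the rule (41.0%). The part of base composition in the motif shares was not tested.

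The motifs that set coding promoter peaks apart were rarer at the noncoding RNA peaks than at coding promoters. TATCGATA was at 1 of the 187 (0.535%; 0.0945 to 2.97%), the CR44357 summit at rank 1973, beside 4.09% of all IDR summits, 8.33% of promoter summits and 0.564% of genome tiles. It rests on 1 peak: without replicate 1 the share was 1.02% and without replicate 2 it was 1.16%. GGTCACAC, known as Motif 1 of housekeeping promoters, was at 0 of 187, which allows a share of up to 1.60% (3 counts; the upper Wilson limit is 2.01%), and at 5.27% of promoter summits. It was in 0.430% of genome tiles. CGATA, the site of the insulator protein BEAF-32, which also lies within TATCGATA, was at 34 (18.2%) with 37 (19.8%) in the flanks, beside 40.1% of promoter summits and 21.4% of genome tiles. In these motifs the noncoding RNA peaks resembled those inside genes and outside genes, where TATCGATA was at 0.166% and 1.25%. GAGAG was at 48 (25.7%; 19.9 to 32.4%) with 44 (23.5%) in the flanks, beside 20.1% of all IDR summits, 16.5% at promoters, 23.0% inside coding genes and 23.5% outside genes. Genome tiles held it at 21.5%. The Zelda site CAGGTA was at 8 (4.28%) with 11 (5.88%) in the flanks, beside 3.70% of all.

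**Figure D5:**
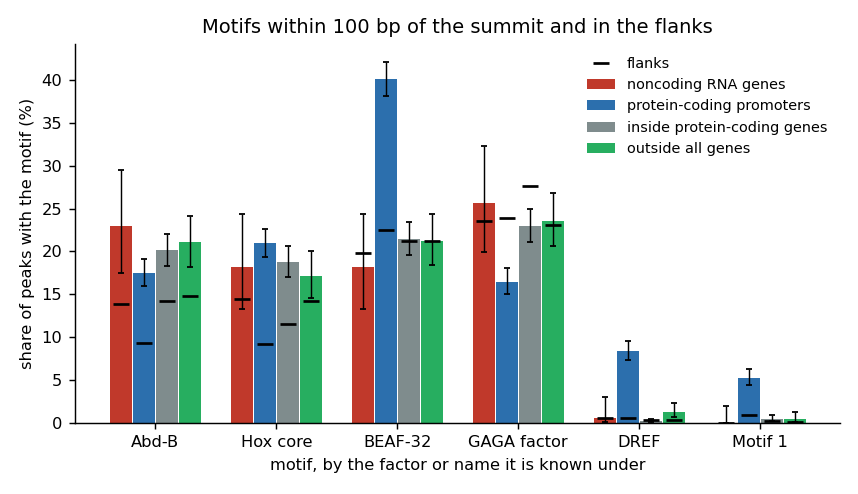
Share of peaks (%) with each motif within 100 bp of the summit, by position class; error bars are 95% Wilson intervals (counting of peaks only) and black ticks are the shares in the flanks 400 to 500 bp away. Noncoding RNA peaks stand near the other classes for the Abd-B motif (23.0%) and the Hox core (18.2%), and lie far below promoters for BEAF-32 (18.2% beside 40.1%).

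Seen from the genes, 175 of 3261 annotated ncRNA genes had at least 1 of these peaks, while 13.6% had an IDR summit of any class inside them or within 1000 bp of a TSS. These counts take each annotated entry as a gene. MicroRNA hairpins and mature products are separate entries, and make up 741 of the 3261 and 20 of the 175. Among lncRNA genes 147 of 1944 (7.56%) had one of the peaks and among asRNA genes 7 of 503 (1.39%), although 14.4% and 19.3% had some IDR summit. The rule removes summits inside coding genes, where asRNA genes often lie, so these 2 shares are set by it in part. Of the 155 genes other than microRNA entries, 127 had 1 peak, 18 had 2 and 10 had 3 or more. All but 9 of the 155 carry a CR number as their name, and the 9 are bxd, iab8, Hsromega, Vinr, marge, flam, acal, roX1 and Uhg4. By length, 31 of 114 lncRNA and asRNA genes longer than 5000 bp (27.2%; 19.9 to 36.0%) had a peak, beside 33 of 669 genes (4.93%; 3.53 to 6.85%) of at most 500 bp. Longer genes offer more bases to a summit, and these shares were not corrected for that.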

How the data were processed

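ChIP-seq of Abd-B-GFP was deposited as peak lists on dm6, per the labels: 1 list for each of 2 replicates and 1 pooled list, of 30000 peaks each, and the IDR list of 5033. Per the deposited text descriptions, each list derives from alignments and a control file; no aligner or peak caller is given in the sources used here. In the authors' files stand a signal value per peak, of unstated scale, used only for ranking, and the −log10 of a q-value, at least 2.02 in the IDR list. They hold no read counts, so the depth is unknown, and 95% Wilson intervals reflect counting error alone. No test was run, since there is no second group.

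Summits were placed on the Ensembl release 115 annotation (BDGP 6.54) and the RefSeq sequence; all 5033 IDR peaks fitted its arm lengths. Coordinates are 1-based. Members satisfied the rule given above; microRNA entries count because the annotation calls them ncRNA. Replicate partners were the best-ranked summits within 100 bp, which need not be the nearest. Motifs were sought on both strands within 100 bp of summits, in flanks, and in 201 bp genome tiles. Named genes were those of the 20 strongest members, genes with 3 or more members, and the list of noncoding RNAs with a role. Hosts of microRNAs, marge and others outside this rule were named after their values were seen, and 1 nearest coding gene that the rule names is not reported here. The members, lists and motifs were chosen with earlier results of these data known. Alternatives were other distances and windows, stricter lists and each replicate alone. Functions were checked on simulated data. The tools were matplotlib 3.10.9, scipy 1.17.1, pandas 2.3.3 and numpy 2.4.6 under Python 3.11.15.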

Additional observations from a re-analysis of the deposited data

How the results depend on the processing

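Of 121 alternative values, 101 stayed within 1.5 times of a reported count or within the 95% interval of a reported share or mean, and 20 did not; none had a direction to reverse. For rare motifs that interval is wide: TATCGATA, at 0.535%, was at 1.02 to 1.16% with either replicate left out, 1.10% among the stronger peaks and 1.60% in 200 bp windows, and TGATTTAT, at 1.60%, was at 0.581 to 2.04% with either replicate left out, 0% among the stronger peaks and 2.67% in 200 bp windows. Restricting the list to its 2516 strongest peaks left 91 peaks at 85 genes, with 34.1% among the 1000 strongest, 96.7% with partners in both replicates and 7.39% of ncRNA genes with a summit. A limit of 500 bp from a noncoding TSS gave 56.5% within 500 bp of one and 8.92% of genes with a summit, and lncRNA and asRNA symbols alone gave 15.4%. The share with both partners was 73.8% within 50 bp, 95.7% within 250 bp and 67.4% among the 5033 strongest of each list. Windows of 200 bp on either side gave TTTATGG or TTTATTG at 35.8%, TAATTA at 26.7% and a GC content of 39.8%. With either replicate left out, GC content was 35.6 to 38.8% and the number of peaks 172 to 196. TTTATG, at 29.4%, was at 29.1% without replicate 1 and at 37.2% without replicate 2. The cause was not tested in any of these, beyond the wider or stricter limits themselves. No paired analysis was possible because there was 1 group. Depth is unknown, so its effect on the ranks was not tested.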

Other observations

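Outside the IDR list, the authors' pooled list held many weaker candidates at noncoding RNA genes. Of its 29999 peaks on the main arms, 1285 had a summit on bases that satisfy the rule, and 1098 of them were among the 24966 peaks that are not in the IDR list. That is 4.40% of those weaker peaks, beside 3.72% of the IDR list. The pooled list runs far below the authors' threshold, so these positions are not peaks in the sense of the report.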
